A study of Mus musculus with 62 samples.

Results

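The inter-alpha-trypsin inhibitor family was followed in mouse white adipose tissue during melanoma cachexia, a wasting of fat and muscle that some tumours cause. The family here is 6 genes, the heavy chain genes Itih1, Itih2, Itih3, Itih4 and Itih5 and the light chain gene Ambp, out of 47643 gene symbols in the table. It was chosen by a measured value: the level of Itih4 in tissue of mice bearing cachectic melanoma cells (CAC) at 6 and 8 weeks, set against mock-injected mice. That contrast is therefore given for every member as a description with no test, and so is Itih4 in the same CAC libraries set against mice bearing non-cachectic melanoma cells (NCAC), and Itih4 wherever the mock libraries of 6 or 8 weeks enter. The 62 libraries form 12 groups, CAC, NCAC and mock at each of 2, 4, 6 and 8 weeks after injection, with 5 libraries a group and 7 in CAC at 8 weeks. All mice were female and 2 months old. The series record gives athymic nude mice (NCI Ath/nude), but the samples are tagged C57BL6/J, a conflict that was not settled. The treatment tag reads cachectic for every sample, so arm, week and replicate were taken from the descriptions. The labels call the cells no more than cachectic and non-cachectic, so a difference between CAC and NCAC is one between 2 cell populations. The labels call the replicates biological without saying how animals map to libraries.

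Inter-alpha-inhibitor proteins are plasma proteins made mainly by hepatocytes. Ambp encodes a precursor that is cut into alpha-1-microglobulin and bikunin, a serine protease inhibitor that carries a chondroitin sulfate chain. The heavy chains of Itih1, Itih2 and Itih3 are attached to that chain, and TSG-6, the product of Tnfaip6, moves them onto hyaluronan, where they bind the matrix of inflamed or expanding tissue. The Itih4 product lacks the link to chondroitin sulfate, circulates alone, is cut by plasma kallikrein and is an acute-phase protein of liver. Itih5 has the heavy chain domains but is expressed outside the liver, including in adipose tissue.

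The members lie at 3 places in the genome, from GENCODE M21 on GRCm38, the build that the submitters' processing notes call mm10, and all are protein coding. Itih4 (ENSMUSG00000021922.17) spans chromosome 14, 30886476 to 30902353, on the plus strand. Itih3 (ENSMUSG00000006522.17) follows 6218 bases further on at 30908572 to 30923760, on the minus strand, so that the 3′ ends of both genes face each other. Itih1 (ENSMUSG00000006529.16) lies 5419 bases beyond at 30929180 to 30943289, also on the minus strand. No other annotated gene stands between these neighbours. Itih2 (ENSMUSG00000037254.18; chromosome 2, 10094593 to 10131396, minus strand) and Itih5 (ENSMUSG00000025780.7; chromosome 2, 10153571 to 10256529, plus strand) are 22174 bases apart. Ambp (ENSMUSG00000028356.4) is alone on chromosome 4, 63143275 to 63154799, on the minus strand. No annotated gene overlaps a member.

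Itih4 and Itih3, the members that stood higher in late CAC tissue, are neighbours with separate promoters, so the 250 bases before the RefSeq start of each are shown (RefSeq, GRCm38.p6, 5′ to 3′, on the strand of the gene). Capitals mark a match to the STAT motif TTCNNNGAA, whose factors carry interleukin-6 signals to acute-phase genes of liver. The GENCODE model of Itih3 reaches further upstream than the RefSeq start used here.
Itih4, chr14:30886226-30886475, plus strand: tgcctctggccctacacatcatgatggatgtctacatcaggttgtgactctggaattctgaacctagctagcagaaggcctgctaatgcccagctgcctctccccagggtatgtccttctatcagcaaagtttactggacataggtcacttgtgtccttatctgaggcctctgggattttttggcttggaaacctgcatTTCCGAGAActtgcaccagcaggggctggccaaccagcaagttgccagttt
Itih3, chr14:30923588-30923837, minus strand: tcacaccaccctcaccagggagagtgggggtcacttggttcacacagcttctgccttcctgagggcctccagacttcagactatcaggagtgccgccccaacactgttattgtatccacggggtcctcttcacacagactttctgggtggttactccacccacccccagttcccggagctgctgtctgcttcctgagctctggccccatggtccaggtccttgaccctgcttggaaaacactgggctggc

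The match in Itih4 begins 51 bases before the start. Promoter windows of 250 bases before and 50 after the start were found for 6 of 6 members and searched on both strands. TTCNNNGAA was present in 1 of 6 members and in 8.3% of the 32851 windows of the RefSeq table. Neither Itih4 nor Itih3 held the interleukin-6 response core CTGGGAA (11.1% of windows), the C/EBP motif TTGCNNAA (10.8%) or the glucocorticoid receptor motif TGTTCT (19%). Among the other members, Itih2 held TTGCNNAA and TGTTCT, Ambp held TGTTCT, and Itih1 and Itih5 held none of these 4. These are matches of letters, and binding was not measured.

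Values are TPM, transcript abundance corrected for transcript length and scaled to 1 total in every library, so levels can be compared between genes. The read depth behind them is unknown. Each library had 11783 to 14470 genes at 1 TPM or more. Between 17.2% and 44.4% of its TPM was mitochondrially encoded, and the summed adipocyte markers Adipoq, Plin1, Fabp4, Cidec, Lipe and Lep stood between 16390 and 51509 TPM. Of the 62 libraries 5 stood apart in liver transcripts, with hepatocyte markers other than Cyp2e1, which was high in every group, summing to over 100 TPM. NCAC replicate 2 at 2 weeks had 13 of these 14 markers at 1 TPM or more, with Alb at 188 TPM, and mock replicate 5 at 6 weeks had 14 of 14, with Alb at 182 TPM. In the other libraries 2 to 8 of these markers reached 1 TPM. The sum was 289 and 203 TPM in CAC replicates 1 and 6 at 8 weeks, mostly Apoc3 (244 and 164 TPM), and 191 TPM in mock replicate 2 at 8 weeks, mostly Arg1 (179.9 TPM). Alb was at 0.122, 0.312 and 5.25 TPM in these libraries in the same order. Transcripts of urothelium (Upk1a, Upk1b, Upk2, Upk3a, Krt20, Krt5 and Psca) summed to over 100 TPM in 19 of 62 libraries, 13 of them CAC. In whole tissue, fewer cells of a type and less RNA per cell cannot be told apart.

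In NCAC and mock tissue the family was mostly Itih5, and in late CAC tissue it was mostly Itih4. Itih4 made up a median of 15.0%, 60.4%, 93.9% and 96.5% of the summed family TPM in CAC tissue at 2, 4, 6 and 8 weeks. Its share had medians of 4.50% to 7.11% in the 4 NCAC groups and 5.47% to 8.18% in the 4 mock groups. Itih5 held medians of 83.1%, 37.4%, 5.50% and 2.62% in CAC tissue over the same weeks, 90.9% to 93.8% in NCAC tissue and 86.2% to 93.5% in mock tissue. Itih3, Itih4 and Itih5 passed the filter, a mean TPM of 0.5 or more across all 62 libraries (means of 1.84, 163 and 75.2 TPM). They also passed it over the 40 NCAC and mock libraries alone, at 0.857, 5.16 and 91.5 TPM. Itih1, Itih2 and Ambp, at means of 0.293, 0.422 and 0.309 TPM, did not pass.

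The tests on log2(TPM + 1) called few members. Calls were made where the adjusted p was below 0.05 in limma, a linear model that shares information on the spread across genes, fitted to the libraries of the groups compared and adjusted over all genes by Benjamini-Hochberg. In CAC against NCAC tissue, 0 of 3 tested members were called at 2 weeks and 0 of 3 at 4 weeks, where 0% of all genes were called in each case. With unadjusted p under 0.05 there were 0 and 2 members, and 528 and 648 of all genes. At 6 weeks 1 of 2 members tested without Itih4 was called, Itih3, against 5.78% of all genes (843 of 14576, with 720 higher and 123 lower). At 8 weeks 0 of 2 was called, against 0.528% of all genes, and 2 of 2 had an unadjusted p under 0.05, as did 16.1% of all genes. In NCAC against mock tissue 0 of 3 members at 2 and 4 weeks and 0 of 2 tested without Itih4 at 6 and 8 weeks were called, as were 0% of all genes. With an unadjusted p under 0.05 there were 0 members at each week, beside 1.61%, 0.789%, 1.41% and 1.24% of all genes at 2, 4, 6 and 8 weeks. In CAC against mock tissue 0 of 3 was called at 2 weeks and 0 of 3 at 4 weeks, against 0.00686% of all genes each time, with 0 and 2 members at an unadjusted p under 0.05, beside 3.45% and 2.78% of all genes. For the change of the CAC minus NCAC difference between 8 and 2 weeks 0 of 2 was called, against 0.0686% of all genes, and 1 had an unadjusted p under 0.05, as did 8.70% of all genes. For the same change of NCAC minus mock, and for mock tissue at 8 against 2 weeks, 0 of 2 members tested without Itih4 and 0% of all genes were called. In these 2 comparisons 0 members had an unadjusted p under 0.05, beside 1.25% and 3.87% of all genes.

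The 720 to 123 split at 6 weeks depended on scaling. It was 331 higher to 335 lower with mitochondrially encoded genes left out and 529 to 467 with median-ratio rescaling. The median log2 difference of all genes was 0.13 as deposited, -0.02 without mitochondrially encoded genes and -0.01 with rescaling. The difference of Itih3 at 6 weeks was 1.47 as deposited, 1.58 without mitochondrially encoded genes and 1.40 with rescaling.

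Itih4 was higher in every CAC library of 6 and 8 weeks than in any NCAC or mock library. At 6 weeks its levels in the 5 CAC libraries were 763, 236, 639, 728 and 484 TPM, against 3.72, 3.31, 2.51, 3.16 and 3.86 TPM in NCAC libraries and 6.40, 10.8, 9.22, 5.33 and 5.98 TPM in mock libraries. All 5 CAC libraries were above all NCAC and mock libraries of that week, and the share of all genes for which this held was not counted. At 8 weeks the lowest, median and highest of the 7 CAC libraries were 151, 1133 and 1336 TPM, against 8.50, 3.47, 22.9, 3.62 and 6.32 TPM in NCAC libraries and 3.13, 4.62, 5.84, 8.05 and 6.44 TPM in mock libraries. The lowest CAC library, replicate 3, was still above the highest NCAC library, also a replicate 3. By rank within a library Itih4 was a median of 82nd of all symbols in CAC tissue at 8 weeks (64th to 607th), 9423rd in NCAC tissue and 9134th in mock tissue.

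As differences on the log2(TPM + 1) scale, Itih4 in CAC minus NCAC tissue was 6.94 (SE 0.28) at 6 weeks and 6.54 (SE 0.55) at 8 weeks. In CAC minus mock tissue it was 5.99 (SE 0.31) and 6.87 (SE 0.46). These are descriptions, since the values chose the family. With the libraries over 100 TPM of urothelial transcripts left out, the difference at 8 weeks was 5.28 to NCAC tissue and 5.64 to mock tissue. This takes out 5 of 7 CAC libraries and keeps replicate 3, the one with the lowest Itih4.

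**Figure D1:**
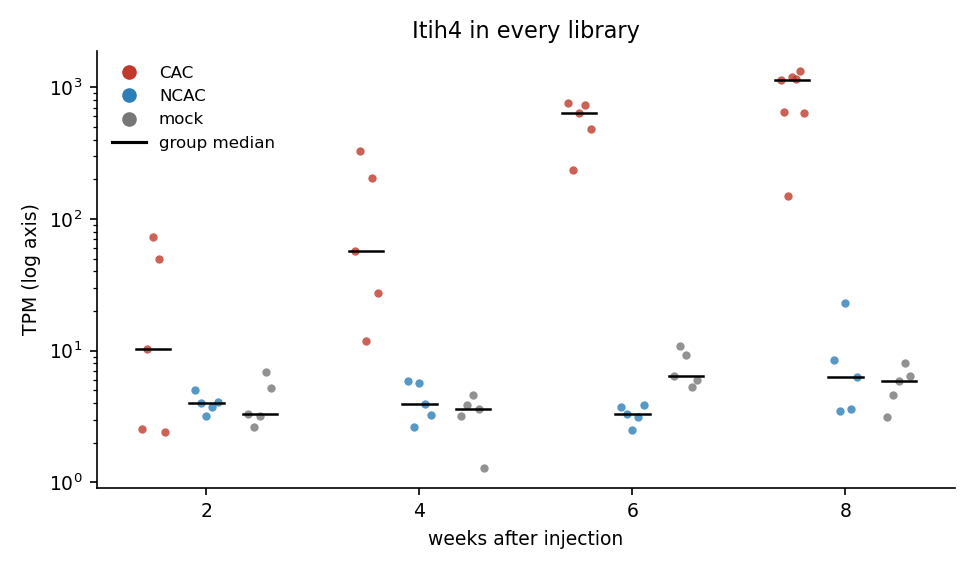
TPM of Itih4 (log axis) in each of the 62 libraries by weeks after injection, with the CAC libraries left of NCAC and mock in each week and a line at each group's median. CAC libraries sit between 2.41 and 72.5 TPM at 2 weeks and between 151 and 1336 TPM at 8 weeks, while NCAC and mock libraries stay between 1.29 and 22.9 TPM.

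The values of 2 and 4 weeks were not in the contrast that chose the family. Earlier results of these data were known at the choice, so tests at these weeks are not fully independent of it. At 2 weeks Itih4 was at 2.54, 10.4, 72.5, 49.5 and 2.41 TPM in CAC libraries, 5.04, 3.99, 3.18, 3.71 and 4.08 TPM in NCAC libraries and 3.32, 2.64, 3.19, 6.89 and 5.23 TPM in mock libraries. Of the 5 CAC libraries, 3 were above every NCAC and mock library and 2 were below every one. The log2 difference was 1.48 (SE 0.81, limma adjusted p = 0.922) to NCAC tissue and 1.46 (SE 0.83, limma adjusted p = 0.999) to mock tissue.

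At 4 weeks the CAC libraries held 57.6, 329, 11.8, 203 and 27.2 TPM of Itih4, the NCAC libraries 5.86, 2.62, 5.67, 3.95 and 3.27 TPM and the mock libraries 3.21, 3.86, 4.61, 3.61 and 1.29 TPM. The groups did not overlap: 5 of 5 CAC libraries were above every NCAC and mock library of that week. The share of all genes that separate in this way was not counted, and any such separation gives the permutation p below. The difference of 3.73 to NCAC tissue (SE 0.77) had an exact permutation p of 0.00794, two-sided, the smallest that 5 against 5 libraries allow, and a limma adjusted p of 0.981 over all genes. The difference of 4.03 to mock tissue (SE 0.79) had the same exact permutation p of 0.00794 and a limma adjusted p of 1.00. Both were called when all 62 libraries shared 1 fit, at limma adjusted p = 0.00196 and 0.00031. The CAC libraries varied widely among themselves at this week, at 126 ± 137 TPM (SD, n = 5).

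Set in order, the group medians of Itih4 ran from CAC at 8 weeks (1133 TPM) to CAC at 6 (639), 4 (57.6) and 2 weeks (10.4). Each of these groups overlapped the next in its range. The other 8 medians lay between 6.40 TPM (mock at 6 weeks) and 3.31 TPM (NCAC at 6 weeks).

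Between NCAC and mock tissue the values of 6 and 8 weeks are descriptions, since the mock libraries helped to choose the family. At 6 weeks all 5 NCAC libraries were below all 5 mock libraries, with the share of all genes that did so not counted. The log2 difference was -0.95 (SE 0.21). Without mock replicate 5, which held all 14 liver markers, it was -1.02. At 2 and 4 weeks the NCAC minus mock differences were -0.02 and 0.31, each at a limma adjusted p of 1.00. At 8 weeks the difference was 0.34 (SE 0.43), 2 of 5 NCAC libraries were above all mock libraries, and without NCAC replicate 3 it was -0.055. In mock tissue alone Itih4 was at 5.62 ± 1.86 TPM at 8 weeks and 4.25 ± 1.77 TPM at 2 weeks (SD, n = 5 each), a difference of 0.34 (SE 0.27).

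The genes whose log2(TPM + 1) followed Itih4 most closely over the 62 libraries were Fetub, the gene of the plasma protein fetuin-B, with a Pearson r of 0.95, and Gyg, the gene of glycogenin, with 0.93. Next came a row named Apoc2_1 with 0.93 and the serpins Serpina3m with 0.92 and Serpina3i with 0.90. Late CAC libraries stand apart from the rest, so r was also taken within each. Over the 12 CAC libraries of 6 and 8 weeks r was 0.91, 0.66, 0.92, 0.76 and 0.60 for these 5 genes in that order, and over the other 50 libraries 0.77, 0.78, 0.67, 0.73 and 0.66. At 8 weeks Fetub was at 17.7 ± 7.48 TPM in CAC tissue (SD, n = 7), 0.731 ± 0.561 TPM in NCAC tissue and 0.742 ± 0.273 TPM in mock tissue (n = 5 each). Gyg was at 368 ± 109 TPM in CAC tissue, 137 ± 24.0 TPM in NCAC tissue and 129 ± 13.6 TPM in mock tissue. The Serpina3 genes are near-identical copies whose reads may be split, so their separate values are uncertain. All libraries share 1 table and 1 scale, and the correlations are descriptions.

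Itih3, a heavy chain carried by bikunin, rose in CAC against NCAC tissue at 6 weeks. Its CAC libraries held 6.52, 3.39, 2.74, 4.18 and 1.30 TPM, the NCAC libraries 1.10, 0.646, 0.698, 0.152 and 0.344 TPM. All 5 CAC libraries were above all NCAC libraries, a separation whose share over all genes was not counted. The log2 difference was 1.47 (SE 0.29, limma adjusted p = 0.0176, exact permutation p = 0.00794). The call was lost without NCAC replicate 2 (1.49, limma adjusted p = 0.05003) and without NCAC replicate 4 (1.36, limma adjusted p = 0.0521). It was also lost with the libraries over 100 TPM of urothelial transcripts left out, which takes out 3 of 5 CAC libraries (1.501, limma adjusted p = 0.064). In the same comparison 4 of 7 urothelial transcripts rose, beside 5.78% of all genes called. Their median log2 difference was 3.82 beside 0.13 for all genes, and their part in the rise of Itih3 was not tested beyond that.

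At 8 weeks the CAC libraries held 1.31 to 13.3 TPM of Itih3 with a median of 5.11, and the NCAC libraries 2.19, 0.571, 0.389, 0.610 and 0.213 TPM. Of the 7 CAC libraries, 5 were above all NCAC libraries. The log2 difference was 1.89 (SE 0.44), with an exact permutation p of 0.00758 and a limma adjusted p of 0.0773, which missed the threshold. It was called without CAC replicate 3 (2.13, limma adjusted p = 0.0157), the library with the lowest Itih3 and Itih4 of its group, and without NCAC replicate 3 (1.82, limma adjusted p = 0.0416). With the urothelial libraries left out, which keeps 2 of 7 CAC libraries, it was 1.16 (limma adjusted p = 0.989). The highest Itih3, 13.3 and 11.5 TPM, was in CAC replicates 1 and 6. Hepatocyte markers other than Cyp2e1 summed to 289 and 203 TPM there, mostly Apoc3, while Alb, at 0.122 and 0.312 TPM, was the lowest of the group. Without both libraries the difference was 1.45 (limma adjusted p = 0.149). The part of liver transcripts in the values of Itih3 was not tested beyond that.

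At 4 weeks Itih3 was at 1.18, 4.76, 3.01, 1.36 and 1.12 TPM in CAC libraries, 0.368, 0.644, 1.68, 0.319 and 0.398 TPM in NCAC libraries and 0.526, 0.968, 0.293, 0.776 and 0.840 TPM in mock libraries. All 5 CAC libraries were above all mock libraries, a separation whose share over all genes was not counted, and 2 of 5 were above all NCAC libraries. The log2 difference was 0.90 to NCAC tissue (SE 0.31, exact permutation p = 0.0317, limma adjusted p = 0.981) and 0.86 to mock tissue (SE 0.28, exact permutation p = 0.00794, limma adjusted p = 1.00). At 2 weeks it was 0.09 to NCAC tissue (SE 0.23) and 0.14 to mock tissue (SE 0.25), with overlapping groups. The change of the CAC minus NCAC difference between 8 and 2 weeks was 1.80 (SE 0.55, limma adjusted p = 0.280).

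Against mock tissue, as a description, Itih3 was 1.28 (SE 0.40) higher in CAC tissue at 6 weeks and 1.53 (SE 0.45) higher at 8 weeks on the log2(TPM + 1) scale. The mock libraries held up to 3.57 TPM at 6 weeks, in replicate 5, and up to 3.59 TPM at 8 weeks, in replicate 2. Both stood apart in liver markers, but replicate 2 mostly through Arg1, with 4 of 14 markers at 1 TPM or more. Markers of fibroblasts and adipocyte progenitors also summed highest of all libraries in these mock libraries, to 6449 and 7209 TPM. The part of either set of markers in these Itih3 values was not tested. Without mock replicate 5 the difference was 1.62 at 6 weeks, and without mock replicate 2 it was 1.80 at 8 weeks. With every library that stood apart in liver markers left out, CAC replicates 1 and 6 among them, the difference at 8 weeks was 1.36. In NCAC against mock tissue the differences of Itih3 were 0.05, -0.04, -0.19 and -0.36 at 2, 4, 6 and 8 weeks, each at a limma adjusted p of 0.948 or more. In order of the group medians the 4 CAC groups came first, at 5.11, 3.39, 1.36 and 0.964 TPM for 8, 6, 4 and 2 weeks, above 0.814 TPM in mock tissue at 8 weeks and 0.326 TPM in mock tissue at 6 weeks, the lowest. Neighbours in this order overlapped.

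**Figure D2:**
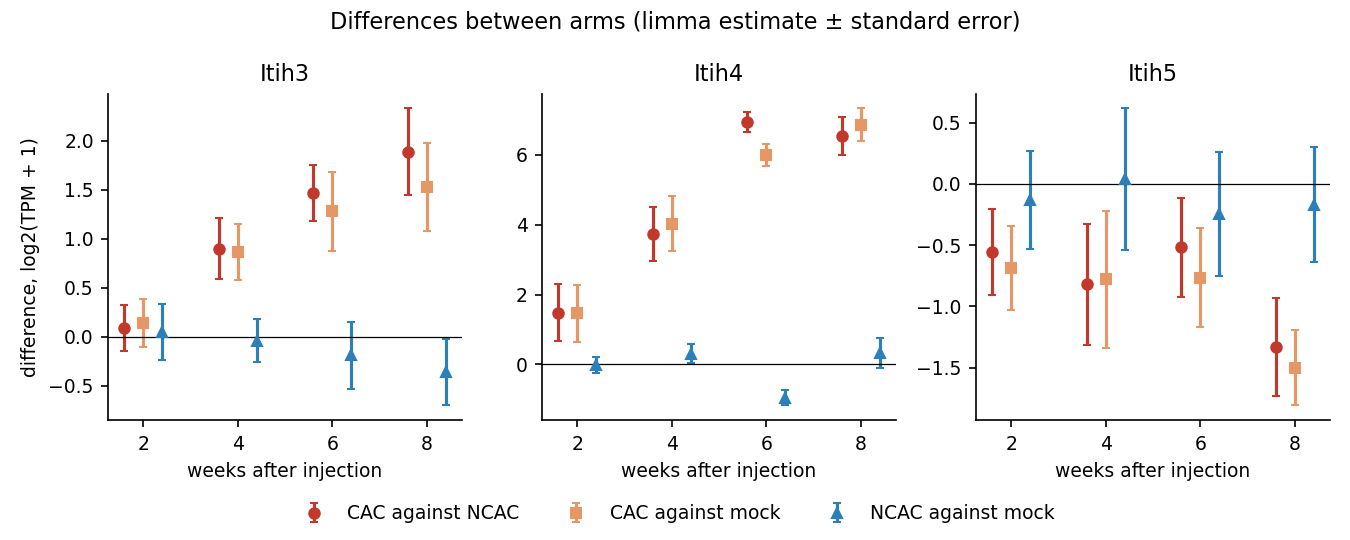
Log2(TPM + 1) differences of Itih3, Itih4 and Itih5 by weeks after injection, as limma estimates with standard errors, for CAC against NCAC, CAC against mock and NCAC against mock. Itih3 reaches 1.89 and Itih4 6.54 in CAC against NCAC tissue at 8 weeks, Itih5 is at -1.33, and NCAC against mock lies between -0.95 and 0.34 for all 3 genes.

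The heavy chain genes Itih1 and Itih2, whose products join bikunin in inter-alpha-inhibitor itself, were near the low end of the measured range. Itih1 was between 0.0187 and 0.921 TPM in all 62 libraries, and 0 of them reached 1 TPM. At 8 weeks it held 0.0888 to 0.921 TPM in CAC libraries, with a median of 0.592, against 0.117, 0.0540, 0.112, 0.159 and 0.253 TPM in NCAC libraries and 0.0738, 0.108, 0.119, 0.174 and 0.0702 TPM in mock libraries. Of the 7 CAC libraries 5 were above all NCAC libraries, and the other 2, replicates 1 and 6, were those with the highest Itih3 of the group (13.3 and 11.5 TPM). The log2 difference to NCAC tissue was 0.38 (exact permutation p = 0.0429, two-sided), and with no filter on low values the limma adjusted p was 0.261. It was the lowest permutation p among 33 tests of Itih1, Itih2 and Ambp. Itih2 was between 0.0179 and 2.39 TPM, with 8 of 62 libraries at 1 TPM or more, and its arms had medians of 0.379 TPM in CAC, 0.194 TPM in NCAC and 0.286 TPM in mock libraries over all weeks.

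Ambp, the source of bikunin, was listed at 0 in 33 of 62 libraries, in 13 of 22 CAC, 11 of 20 NCAC and 9 of 20 mock libraries. The highest CAC library held 0.262 TPM, at 6 weeks. All 5 NCAC libraries were listed at 0 at 8 weeks, as were 5 of 7 CAC libraries. It exceeded 1 TPM in 2 libraries, NCAC replicate 2 at 2 weeks (6.63 TPM) and mock replicate 5 at 6 weeks (8.15 TPM). These are the libraries with nearly all liver markers, where Hnf4a, a transcription factor of hepatocytes, stood at 0.816 and 1.08 TPM. Itih4 in the same libraries was at 3.99 and 5.98 TPM, within the range of its group.

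**Figure D3:**
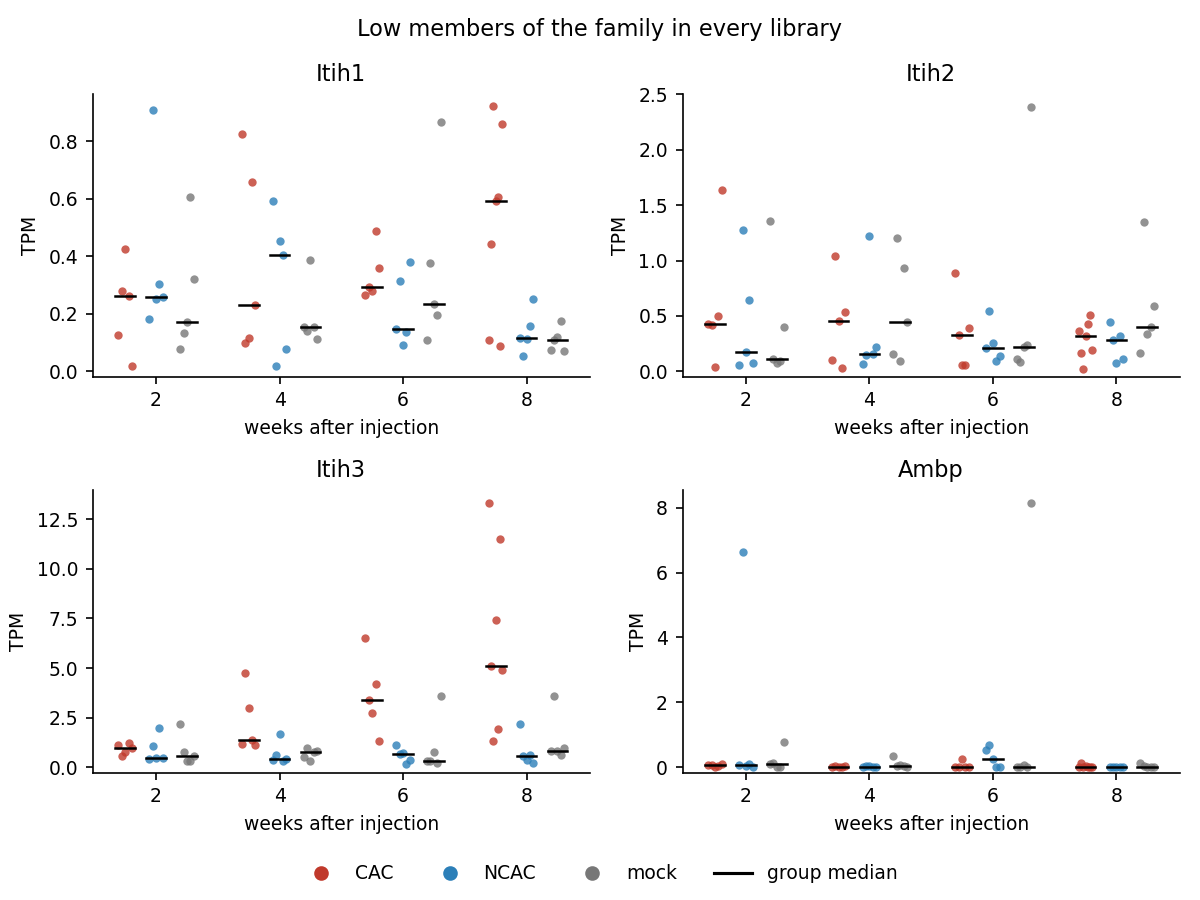
TPM of Itih1, Itih2, Itih3 and Ambp in each library by weeks after injection, with CAC left of NCAC and mock and a line at each group's median. Itih3 reaches 13.3 TPM in CAC tissue at 8 weeks, Itih1 stays under 1 TPM, and Ambp exceeds 1 TPM in 1 NCAC library (6.63 TPM) and 1 mock library (8.15 TPM).

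Liver markers were set beside Itih4 in the same libraries. Of 15 hepatocyte markers 9 were tested, and in CAC against NCAC tissue 0 rose and 1 fell at 6 weeks, where 5.78% of all genes were called. The median log2 difference was 0.24 beside 0.13 for all genes. At 8 weeks 0 rose and 1 fell, where 0.528% of all genes were called, with a median of 0.41 beside -0.03. Of the 9, 7 were higher in CAC than in NCAC tissue at 8 weeks and 5 at 6 weeks, without a call. The largest positive difference at 8 weeks was that of Ahsg, which encodes fetuin-A, at 10.4 ± 11.4 TPM in CAC tissue (SD, n = 7) and 0.912 ± 0.698 TPM in NCAC tissue (n = 5; log2 difference 1.92, SE 0.70, limma adjusted p = 0.191). Apoa2 was at 5.84 and 7.08 TPM in CAC replicates 1 and 6 and at 0.565 to 2.81 TPM in the other CAC libraries of that week, and without the libraries that stood apart in liver markers Itih4 was 6.25 higher in CAC than in NCAC tissue. Ahsg, Apoa2 and Alb were named after their values were seen, and the part of liver transcripts in the values of Itih4 was not tested. The gene that fell was Alb, which encodes albumin, at 1.88 ± 0.91 TPM in CAC tissue and 19.9 ± 12.7 TPM in NCAC tissue at 6 weeks (SD, n = 5 each; log2 difference -2.69, SE 0.39, limma adjusted p = 0.0048), a call lost in 1 of 18 alternatives, with the urothelial libraries left out (limma adjusted p = 0.123). At 8 weeks it was at 1.64 ± 1.30 TPM in CAC tissue (n = 7) and 14.6 ± 8.75 TPM in NCAC tissue (n = 5), a difference of -2.49 (SE 0.45, limma adjusted p = 0.0353) that was called in 7 of 20 alternatives, with limma adjusted p of up to 0.989. Hnf4a did not exceed 0.0532 TPM in any CAC library of these weeks and was listed at 0 in 2 of 5 at 6 weeks and 1 of 7 at 8 weeks. Without Cyp2e1 the summed markers ranged from 11.98 to 31.95 TPM in CAC tissue, 22.6 to 59.5 TPM in NCAC tissue and 17.0 to 429 TPM in mock tissue at 6 weeks. At 8 weeks they ranged from 15.9 to 289 TPM in CAC tissue, 20.98 to 40.8 TPM in NCAC tissue and 11.3 to 191 TPM in mock tissue.

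**Figure D4:**
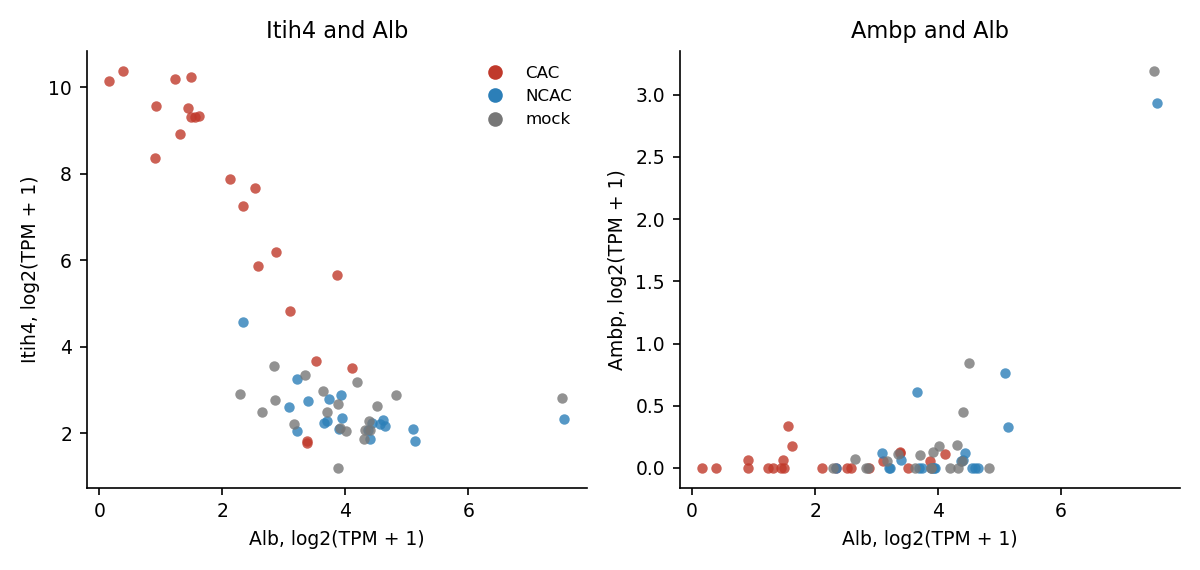
Log2(TPM + 1) of Itih4 (left) and of Ambp (right) against that of Alb in each of the 62 libraries, coloured by arm. The 12 CAC libraries of 6 and 8 weeks combine 151 TPM of Itih4 or more with 4.04 TPM of Alb or less, and the NCAC library and the mock library at 188 and 182 TPM of Alb are the ones with 6.63 and 8.15 TPM of Ambp.

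Urothelial transcripts were set beside the 2 members that stood higher. Among the 12 CAC libraries of 6 and 8 weeks, the 4 with a urothelial sum of at most 100 TPM held 151 to 728 TPM of Itih4, and the 8 above it 236 to 1336 TPM. The highest Itih4 in any NCAC or mock library was 22.9 TPM. Itih3 was at 1.31 to 5.11 TPM in the 4 libraries and 1.30 to 13.3 TPM in the 8, against at most 3.59 TPM in NCAC and mock tissue. Urothelial sums ranged from 5.87 to 703 TPM in CAC tissue, 6.89 to 36.0 TPM in NCAC tissue and 2.49 to 145 TPM in mock tissue at 6 weeks, and from 7.82 to 242 TPM, 6.48 to 26.1 TPM and 10.02 to 147 TPM in the same arms at 8 weeks.

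Itih5, the member that adipose tissue itself is known to express, was the most abundant in NCAC and mock tissue and lower in CAC tissue without a call. At 8 weeks it was at 18.3 to 53.3 TPM in CAC libraries with a median of 26.9, against 74.7, 139, 22.2, 109 and 105 TPM in NCAC libraries and 145, 120, 47.6, 89.2 and 66.4 TPM in mock libraries. NCAC replicate 3 lay within the CAC range, and the other 4 NCAC libraries were above all CAC libraries. The log2 difference to NCAC tissue was -1.33 (SE 0.40, exact permutation p = 0.0202, limma adjusted p = 0.123). Without NCAC replicate 3, which also had the highest Itih4 of its arm, it was -1.77 and called (limma adjusted p = 0.00447). Against mock tissue, as a description, it was -1.50 (SE 0.31), with 6 of 7 CAC libraries below all mock libraries. In CAC against NCAC tissue at 8 weeks 0 of 6 adipocyte markers were called (median log2 difference -0.48 beside -0.03 for all genes), nor were any of 6 markers of fibroblasts and adipocyte progenitors (median -0.84). Of all genes 0.528% were called in that comparison. Against mock tissue at 8 weeks, as a description, the medians of the 2 sets were 0.02 and -1.29 in the same order. The median of all genes was -0.08. The part of these markers in the values of Itih5 was not tested.

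At 2, 4 and 6 weeks the differences of Itih5 to NCAC tissue were -0.55 (SE 0.35), -0.82 (SE 0.50) and -0.52 (SE 0.41), with limma adjusted p of 0.922, 0.981 and 0.445. At 6 weeks the CAC libraries held 41.8, 65.1, 37.4, 43.7 and 26.5 TPM, the NCAC libraries 46.7, 54.8, 179, 32.6 and 48.8 TPM and the mock libraries 97.6, 37.9, 31.6, 113 and 131 TPM, so the groups overlapped. The change of the CAC minus NCAC difference between 8 and 2 weeks was -0.78 (SE 0.57, limma adjusted p = 0.682). In NCAC against mock tissue Itih5 differed by -0.25 to 0.04 in the 4 weeks, each within its standard error. In mock tissue it was at 93.7 ± 39.5 TPM at 8 weeks and 93.7 ± 49.4 TPM at 2 weeks (SD, n = 5 each). Group medians ran from 105 TPM in NCAC tissue at 8 weeks to 26.9 TPM in CAC tissue at 8 weeks, with CAC in 4 of the 5 lowest places, and neighbouring groups overlapped throughout.

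**Figure D5:**
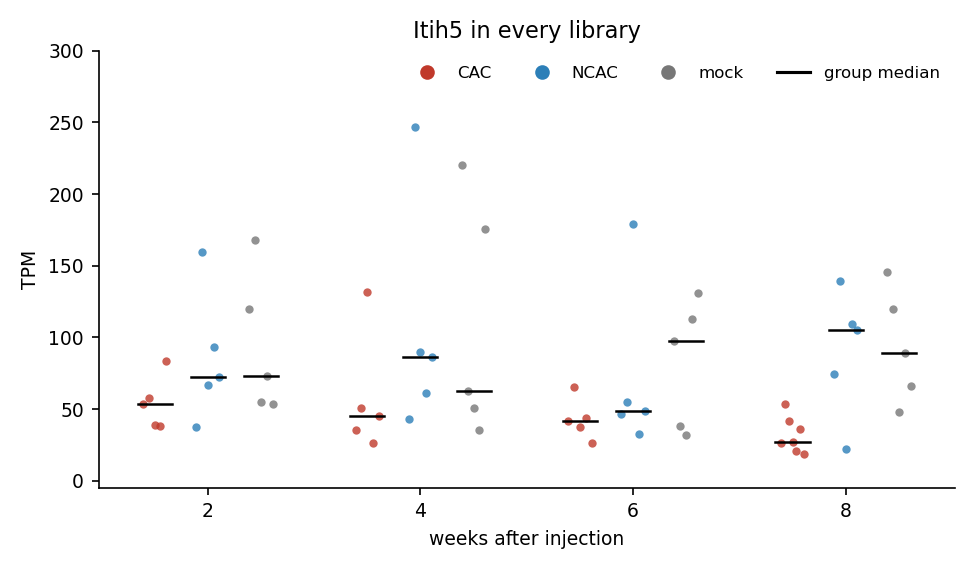
TPM of Itih5 in each of the 62 libraries by weeks after injection, with CAC left of NCAC and mock and a line at each group's median. The CAC libraries at 8 weeks lie between 18.3 and 53.3 TPM, and NCAC and mock libraries spread from 22.2 to 247 TPM over all weeks.

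The genes closest to Itih5 over the 62 libraries were Tln2, which encodes talin 2, with a Pearson r of 0.96, and Pkp2, which encodes the desmosome protein plakophilin 2, with 0.94. Sspn, Ahnak and Npr3, the last the clearance receptor of natriuretic peptides, each had 0.93. Over the 12 CAC libraries of 6 and 8 weeks r was 0.91, 0.89, 0.81, 0.73 and 0.92 for the 5 genes in that order, and 0.95, 0.94, 0.93, 0.93 and 0.92 over the other 50. Npr3 was at 10.7 ± 6.18 TPM in CAC tissue at 8 weeks (SD, n = 7), 162 ± 127 TPM in NCAC tissue and 130 ± 124 TPM in mock tissue (n = 5 each). Tln2 was at 8.27 ± 3.06 TPM in CAC tissue, 18.1 ± 8.17 TPM in NCAC tissue and 18.0 ± 8.11 TPM in mock tissue.

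Genes that make, bind or cut hyaluronan, or move heavy chains onto it, showed no called change. Of 21 on the list 20 were in the table and 17 were tested, and in CAC against NCAC tissue 0 rose and 0 fell at 2, 4, 6 and 8 weeks. The shares of all genes called were 0%, 0%, 5.78% and 0.528%, so a count of 0 does not set the list apart. The median log2 difference of the list was -0.14 at 6 weeks beside 0.13 for all genes, and -0.04 at 8 weeks beside -0.03. Tnfaip6 was at 3.87 ± 2.11 TPM in CAC tissue (SD, n = 7) and 2.76 ± 0.752 TPM in NCAC tissue (n = 5) at 8 weeks (limma adjusted p = 0.659). Ptx3, whose product binds TSG-6 and heavy chains in the hyaluronan matrix, was at 0.507 ± 0.245 TPM in CAC tissue and 2.22 ± 1.83 TPM in NCAC tissue at 6 weeks (n = 5 each; log2 difference -0.95, SE 0.32, limma adjusted p = 0.0958). The synthase gene Has2 was at 0.264 ± 0.173 TPM in CAC tissue and 0.812 ± 0.479 TPM in NCAC tissue at that week (limma adjusted p = 0.141). The receptor genes Cd44 and Lyve1 stood at 4.69 ± 1.57 and 31.2 ± 16.6 TPM in CAC tissue at 8 weeks, and at 5.63 ± 4.06 and 44.5 ± 36.6 TPM in NCAC tissue. These named members, other than Tnfaip6, were picked after their values were seen.

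Of 14 genes that build chondroitin sulfate, the chain that holds heavy chains on bikunin, 13 were tested. In CAC against NCAC tissue 0 rose and 1 fell at 6 weeks, where 5.78% of all genes were called. The median log2 difference was 0.13 for the list and 0.13 for all genes. At 2, 4 and 8 weeks 0 were called, beside 0%, 0% and 0.528% of all genes. The gene that fell was Chst11, a chondroitin 4-O-sulfotransferase, at 16.1 ± 2.44 TPM in CAC tissue and 29.8 ± 4.49 TPM in NCAC tissue (SD, n = 5 each; log2 difference -0.85, SE 0.14, limma adjusted p = 0.00765). It was called in 17 of 18 alternatives. The exception was the urothelial libraries left out, which takes out 3 of 5 CAC libraries (-1.04, limma adjusted p = 0.0669). Of 7 proteases that inter-alpha-inhibitor proteins are known to meet 3 were tested and 0 were called in CAC against NCAC tissue at any week, with medians of 0.52 at 6 weeks and 0.37 at 8 weeks. Klkb1, which encodes plasma kallikrein, was below the filter, at 0.0513 ± 0.0690 TPM in CAC tissue at 8 weeks (n = 7) and 0.1004 ± 0.0995 TPM in NCAC tissue (n = 5). Furin, which encodes a protease of the secretory pathway, was at 26.7 ± 8.13 TPM in CAC tissue and 19.9 ± 3.01 TPM in NCAC tissue at that week. Chst11, Klkb1 and Furin were named after their values were seen.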

How the data were processed

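RNA sequencing of white adipose tissue was measured in 62 libraries in 12 groups. The authors deposited 1 table of TPM values per gene symbol, made from stranded mRNA libraries per the labels' protocols. The build was mm10, per the submitters' processing notes. Which aligner, counter and annotation were used is not given in the sources used here. TPM keeps no depth, so read depth and counting error are unknown. The labels call the samples biological replicates, and the tests weigh differences between groups against the spread between these libraries.

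Values were taken as log2(TPM + 1), so fold changes of low genes are understated. Genes with a mean TPM of 0.5 or more (14577 of 47643) entered limma 3.58.1 (R 4.3.3) with trended, robust variance, fitted per comparison and adjusted by Benjamini-Hochberg. Single members were compared by exact two-sided permutation tests (SciPy 1.17.1, Python 3.11.15; 61 tests, 8 under 0.05, smallest possible p of 0.00794 for 5 against 5). Unless a test is named, values are descriptions. The share of all genes whose groups did not overlap was not counted. Fits were tested on simulated data. Figures used matplotlib 3.10.9.

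The members and the gene lists were chosen with earlier results of these data known. Named were all 6 members, called genes of the hyaluronan list, and the 5 tested genes with the highest Pearson r to Itih4 and to Itih5, leaving out members, predicted genes, Rik symbols and mitochondrially encoded genes; other genes are said to be named after their values were seen. Alternatives were a pseudocount of 0.1, a filter at 2 TPM and none, median-ratio rescaling, mitochondrially encoded genes left out, 1 fit of all 62 libraries, urothelial libraries left out, a replicate block, and each library left out in turn; those for Chst11 and Alb, and the 5 libraries with over 100 TPM of liver transcripts left out, were chosen after seeing the data.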

Additional observations from a re-analysis of the deposited data

Results flagged for a closer look

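In 13 of 72 sets of libraries (6 members in 12 groups) 1 library stood far from the others of its group for a member on the log2(TPM + 1) scale. Chance gives about 5% of such sets for normally distributed values, a share that cannot be applied to Ambp, where most libraries are at or near 0 and 1 value above 0 stands apart by construction. Itih4 in CAC tissue at 8 weeks was lowest in replicate 3, at 150.5 TPM, with the other 6 libraries between 636 and 1336 TPM.

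Several of the other sets involve libraries that stood apart in liver markers. In NCAC replicate 2 at 2 weeks Itih1 was at 0.910 TPM and Ambp at 6.63 TPM. In mock replicate 5 at 6 weeks Itih2 was at 2.39 TPM, Itih3 at 3.57 TPM and Ambp at 8.15 TPM.

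Itih3 was at 3.59 TPM in mock replicate 2 at 8 weeks. Itih1 was at 0.388 TPM in mock replicate 3 at 4 weeks, and Itih2 at 1.22 TPM in NCAC replicate 3 at 4 weeks. Ambp, at 0 in many libraries, was highest in CAC replicate 3 at 6 weeks (0.262 TPM), CAC replicate 2 at 8 weeks (0.129 TPM), mock replicate 5 at 2 weeks (0.792 TPM) and mock replicate 1 at 4 weeks (0.362 TPM).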

How the results depend on the processing

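No called difference of a member changed sign. Without NCAC replicate 3 at 8 weeks the described NCAC minus mock difference of Itih4 turned to -0.055 (-0.055 to 0.55 with each library left out), and its change between 8 and 2 weeks to -0.034. A fit of all 62 libraries takes 1 spread from groups that differ in spread. With that fit the count of called members was 1 in CAC against NCAC tissue at 4 weeks (Itih4, 3.73), 1 in CAC against mock tissue at 4 weeks (Itih4, 4.03) and 1 in CAC against NCAC tissue at 8 weeks (Itih3). In CAC against NCAC tissue at 6 weeks it was 0 with the filter at 2 TPM, which Itih3 does not pass, 0 with urothelial libraries left out, and 0 to 1 with each library left out. At 8 weeks it was 1 with median-ratio rescaling (Itih3, 1.90, limma adjusted p = 0.0337) and 0 to 2 with each library left out. With urothelial libraries left out Itih4 was 5.28 (CAC minus NCAC) and 5.64 (CAC minus mock) at 8 weeks, and 3.58 for the change of CAC minus NCAC between 8 and 2 weeks. That setting takes out 3 of 5 CAC libraries at 2 and at 6 weeks and 5 of 7 at 8 weeks, so few remain. With the libraries that stood apart in liver markers left out, no count of called members changed. The cause was not tested. Over all genes, CAC against NCAC gave 843 calls at 6 weeks (62 to 1682 under alternatives) and 77 at 8 weeks (0 to 1253), and the change between 8 and 2 weeks gave 10 (0 to 84). Depth cannot be read from TPM, which limits what can be said of Itih1, Itih2 and Ambp.

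Same-numbered libraries correlated in their deviations from the group means by -0.65 to 0.57, so the numbers were not taken as pairs. With a replicate block, fitted between arms within a week, 1 member was called in CAC against NCAC tissue at 6 weeks (Itih3, 1.47, limma adjusted p = 0.0106) and 0 at 8 weeks (Itih3, 1.70, limma adjusted p = 0.176), and no member's call changed; over all genes 815 and 2 were called. In 0 of 12 comparisons every library correlated best with its own number.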
